A study of Mus musculus with 12 samples.

Results

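Proteins that bind the enhancers and promoters of odorant receptor (OR) genes or that are tied to the choice of receptor class are encoded by *Lhx2*, *Ldb1*, *Ebf1*, *Ebf2*, *Ebf3*, *Ebf4*, *Emx2* and *Bcl11b*. These 8 genes, 8 of the 35556 probe sets on the array, were chosen by name, and each was represented by 1 probe set that the platform annotation assigns to that gene alone, as it does for 21789 probe sets in all. Their RNA was measured in the olfactory lining of the nose, the main olfactory epithelium (MOE), in 6 ΔJ mice and 6 wild-type mice of the C57BL/6 background, 1 Affymetrix Mouse Gene ST array per mouse. ΔJ mice are homozygous for a CRISPR-Cas9 deletion of the J element, an enhancer within the class I OR cluster on chromosome 7, and come from 1 founder made in hybrid eggs and then backcrossed, with wild-type littermates as controls. The ΔJ mice were 3 males and 3 females, the wild-type mice 2 males and 4 females. All were taken at P30 except 1 ΔJ and 2 wild-type mice at P33. The labels name the whole MOE, so RNA of all its cell types was pooled, and a lower signal from fewer cells of a type cannot be told apart from less RNA per cell.

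An olfactory sensory neuron (OSN) transcribes a single allele of a single OR gene. The enhancers of OR clusters carry homeodomain sites next to O/E-like sites. In mouse OSNs, the LIM homeodomain protein Lhx2 and the Ebf proteins bind these paired sites, and the adaptor Ldb1, which holds no DNA-binding domain of its own, links Lhx2-bound enhancers to each other and to the chosen gene. Emx2 is a homeodomain protein needed for normal expression of many OR genes in mice. Bcl11b is a zinc finger protein whose loss in mice shifts OSNs toward class I receptors. In ΔJ mice one such enhancer is missing, and the comparison asks whether the mRNA of the binding proteins differed between genotypes.

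To show the sites these proteins read, windows around RefSeq gene starts of GRCm38.p6 (300 bases, from 250 before to 50 after the annotated start, 5′ to 3′ on the strand of the gene) were scanned on both strands for homeodomain letters (TAATGA or else TAATGG, as well as TAATTA or else TAATTG) and for the Ebf palindrome (TCCC and GGGA with any 2 bases between them). The homeodomain motifs can overlap one another on opposite strands and do not overlap the palindrome. Class I OR genes measured as single genes were 116, on 117 probe sets, and 100 of them had a window. In 73 of these 100 windows (73.0%) the annotated start is itself an ATG, against 5.83% of all 32851 windows, so that most class I windows sit on a start codon and not on a transcription start. A homeodomain match was found in 57 of the 100 (57.0%), in 61.3% of 848 windows of other *Olfr* genes and in 25.3% of all windows. In the 27 class I windows that do not start at an ATG it was found in 14 (51.9%), against 66.4% of other *Olfr* windows and 24.3% of all windows of that kind. OR windows were richer in A and T, with a median GC content of 37.5% for class I and 35.0% for other *Olfr* genes, against 52.7% over all windows. The Ebf palindrome was found in 0 of the 100 and in 0.904% of all windows. It is so rare that 0 in 100 windows does not set class I genes apart. The different O/E-like motif that the paper gives for OR enhancers was not scanned, so the presence of such sites is not described here. The window of *Olfr544*, a class I gene with a large decrease in ΔJ mice whose annotated start is not an ATG, is shown as an example of a receptor promoter, with the homeodomain match in capitals.
*Olfr544*, chr7:102488258-102488557, minus strand: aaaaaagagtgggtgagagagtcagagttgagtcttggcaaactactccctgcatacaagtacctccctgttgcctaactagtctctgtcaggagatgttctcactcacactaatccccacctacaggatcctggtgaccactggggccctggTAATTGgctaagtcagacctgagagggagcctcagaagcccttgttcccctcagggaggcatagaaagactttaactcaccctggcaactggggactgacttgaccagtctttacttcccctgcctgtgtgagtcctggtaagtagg

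The promoters of the factors themselves were mostly rich in G and C. For 7 of the 8 genes the table held 11 windows, in 0 of which the annotated start is an ATG, with a median GC content of 67.3%, and 3 of the 11 (27.3%) held a homeodomain match. *Ebf2* was not matched. The 3 belong to *Emx2* and *Ldb1*. One promoter of each is shown because they carry letters that homeodomain proteins such as Emx2 and Lhx2 can read, again with the matches in capitals.
*Emx2*, chr19:59458440-59458739, plus strand: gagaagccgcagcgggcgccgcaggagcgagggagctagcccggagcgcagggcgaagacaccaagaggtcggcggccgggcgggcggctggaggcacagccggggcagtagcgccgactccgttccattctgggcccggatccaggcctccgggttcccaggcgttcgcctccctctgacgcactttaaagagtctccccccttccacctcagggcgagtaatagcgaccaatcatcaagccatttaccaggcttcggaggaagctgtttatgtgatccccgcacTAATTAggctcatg
*Ldb1*, chr19:46037021-46037320, minus strand: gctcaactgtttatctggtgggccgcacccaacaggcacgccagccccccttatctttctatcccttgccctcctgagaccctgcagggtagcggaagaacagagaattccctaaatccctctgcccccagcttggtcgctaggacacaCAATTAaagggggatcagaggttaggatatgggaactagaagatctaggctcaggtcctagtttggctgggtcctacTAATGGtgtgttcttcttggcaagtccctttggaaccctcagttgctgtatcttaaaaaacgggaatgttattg
A match is a description of letters and not a bound site.

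Every level below is a log2 signal from which the 75th percentile of its array was subtracted, so that 0 is the 75th percentile and 1 unit is a 2-fold difference. To gauge the background, genes of the Y chromosome were read in the 7 females, where *Kdm5d*, *Uty* and *Eif2s3y* had mean levels of -3.72, -4.69 and -4.99. All 8 factors were measured above this gauge in every mouse. The arrays fell into replicates 1 to 3 and replicates 4 to 6 of each genotype, with standard deviations of their values of 2.07 to 2.13 and of 2.20 to 2.23. Each of these sets holds 3 ΔJ and 3 wild-type mice, and what the numbers share is not stated in the labels. The arrays of ΔJ replicates 5 and 6 stood apart from the rest of their set. The median absolute deviation of a probe set from the mean of the 3 mice of its genotype and set, the mouse itself included, was 0.13 for ΔJ replicate 5 and 0.12 for ΔJ replicate 6, against 0.06 to 0.09 for the other 10 mice. Results are therefore given with and without these 2 mice, an alternative chosen after the data were seen. Without them only ΔJ replicate 4 remains of the ΔJ mice of replicates 4 to 6, against 3 wild-type mice. The fit of genotype holds no term for the set, so differences between the sets enter the values without 1 or both of these mice.

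No difference between genotypes passed the test in any of the 8 factors. Over all 35556 probe sets 48 were called at an adjusted p under 0.05 from limma, which is 0.135%, and 0 of the 8 factors were among them. Before adjustment, 0 of the 8 had a p under 0.05, against 3.33% of all probe sets. The levels of ΔJ and wild-type mice overlapped in all 8 genes, while 0.301% of all probe sets had mice that did not overlap. The log2 fold change was negative in 6 genes and positive in 2, from -0.13 (*Ebf4*) to 0.07 (*Bcl11b*), with a median of -0.05 against -0.03 over all probe sets. In the same mice and the same fit, the 117 class I probe sets had a median log2 fold change of -0.51, and 40 of them, each of a different gene, were called lower.

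**Figure D1:**
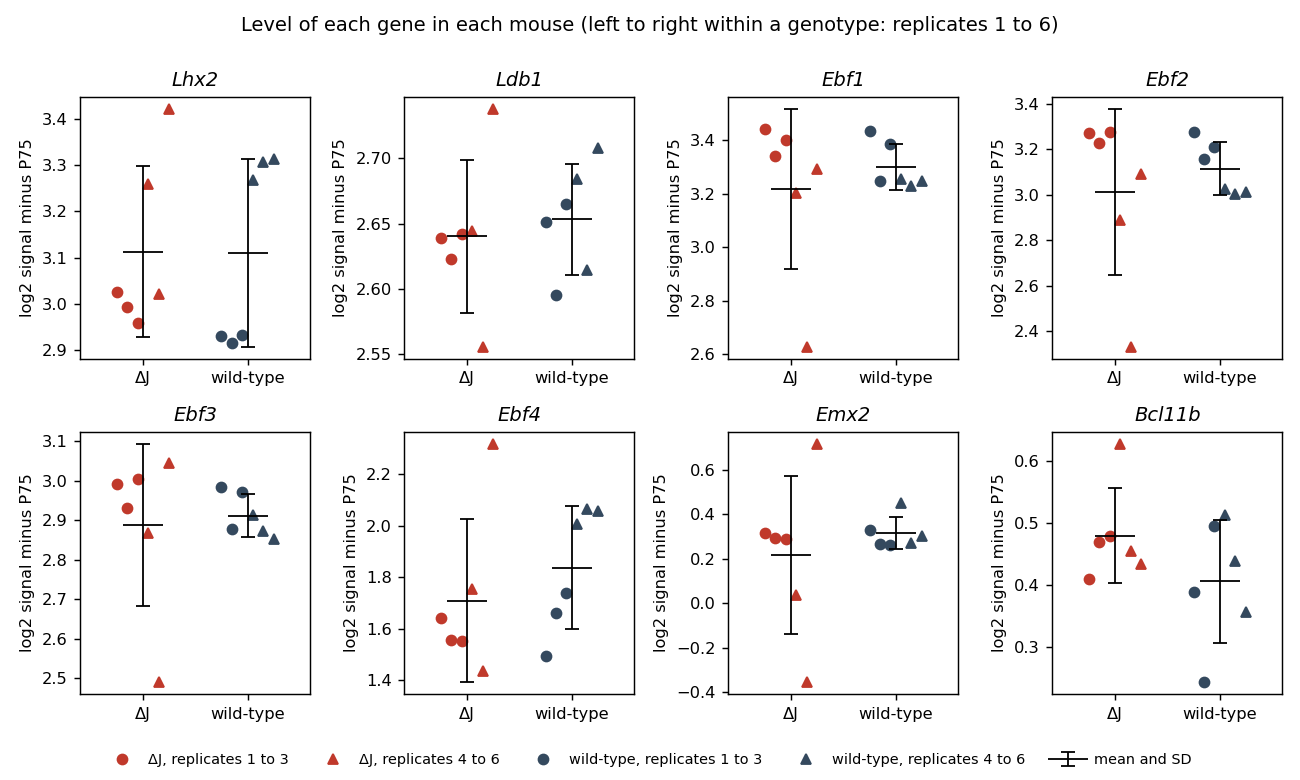
Levels of the 8 factors (vertical axes, log2 signal minus the 75th percentile of the array) in 6 ΔJ and 6 wild-type mice, with circles for replicates 1 to 3, triangles for replicates 4 to 6, and black bars for the mean and SD. The genotypes overlap in every panel, ΔJ replicate 5 is the lowest ΔJ mouse in 6 of 8 panels, and ΔJ replicate 6 is the highest in 5.

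*Lhx2* (chromosome 2, 38339271 to 38369737, GRCm38.p6) encodes the LIM homeodomain protein of the OR enhancers, and its mean level was nearly identical in the 2 genotypes. In ΔJ mice its level was 2.96 in the lowest, 3.02 in the median and 3.42 in the highest mouse, against 2.92, 3.10 and 3.31 in wild-type mice. The high values in both genotypes belong to replicates 4 to 6, and the ranges overlap almost fully. *Lhx2* averaged 3.11 ± 0.19 in ΔJ mice and 3.11 ± 0.20 in wild-type mice (SD, n = 6 each). Its log2 fold change was 0.002 (standard error 0.11, 95% interval -0.23 to 0.24, adjusted p = 0.999 from limma). In this fit, which counts the difference between the sets of arrays as spread, that leaves room for a level between 0.85 and 1.18 times that of wild-type mice. With the set of arrays as a block the estimate was the same and its standard error 0.06. Without ΔJ replicates 5 and 6, which leaves the sets unequal between genotypes, the log2 fold change was -0.05. Within the sets it was 0.07 in replicates 1 to 3, and ΔJ replicate 4 was at -0.04 relative to the wild-type mean of replicates 4 to 6.

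*Ldb1* (chromosome 19, 46031525 to 46048145), the adaptor of Lhx2, varied least between mice. Its level was 2.56, 2.64 and 2.74 in the lowest, median and highest ΔJ mouse, against 2.60, 2.66 and 2.71 in wild-type mice. Both the lowest and the highest of all 12 values belong to ΔJ mice, replicates 5 and 6. The log2 fold change of *Ldb1* was -0.01 (standard error 0.05, 95% interval -0.12 to 0.10, adjusted p = 0.995 from limma), and -0.02 without the 2 mice. At this spread an observed difference of 0.30 log2 units, or 1.23-fold, would have been needed for a call. The largest unadjusted p among the called probe sets was 6.16e-05 from limma. A true difference of that size would not always be called.

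The Ebf genes encode helix-loop-helix proteins first described by their binding to O/E sites of olfactory genes, *Ebf1* being the Olf-1 gene. *Ebf1* (chromosome 11, 44618100 to 45008096) had levels of 2.63, 3.32 and 3.44 in the lowest, median and highest ΔJ mouse, against 3.23, 3.25 and 3.44 in wild-type mice. Its low ΔJ value is a single mouse, replicate 5, and the next lowest ΔJ mouse was at 3.20. *Ebf2* (chromosome 14, 67233292 to 67430952) had 2.33, 3.16 and 3.27 in ΔJ mice, against 3.00, 3.09 and 3.28 in wild-type mice. *Ebf3* lies on chromosome 7 from 137193671 to 137322805, on the chromosome of the class I cluster but outside it. Its level was 2.49, 2.96 and 3.05 in ΔJ mice, against 2.85, 2.90 and 2.98 in wild-type mice. In all of these 3 genes the lowest of the 12 mice was ΔJ replicate 5, and the ΔJ median was above the wild-type median. *Ebf4* (chromosome 2, 130295126 to 130370482) had levels of 1.43, 1.60 and 2.32 in ΔJ mice, against 1.50, 1.87 and 2.07 in wild-type mice. Its highest value was that of ΔJ replicate 6, and the ΔJ median was below the wild-type median.

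None of the Ebf genes passed the test. The log2 fold change was -0.08 for *Ebf1* (standard error 0.12, 95% interval -0.35 to 0.18) and -0.10 for *Ebf2* (standard error 0.15, 95% interval -0.42 to 0.22). For *Ebf3* it was -0.02 (standard error 0.09, 95% interval -0.22 to 0.17). All 3 had an adjusted p of 0.993 or 0.994 from limma. Leaving out ΔJ replicate 5 turned their direction, to 0.04, 0.04 and 0.06, and lowered the standard error of *Ebf1* to 0.06. That fit leaves the sets of arrays unequal between genotypes and holds no term for the set. In replicates 1 to 3 alone the 3 values were 0.04, 0.04 and 0.03. Relative to the wild-type mean of replicates 4 to 6, *Ebf2* was at -0.13 in ΔJ replicate 4 and at 0.08 in ΔJ replicate 6. The log2 fold change of *Ebf4* was -0.13 (standard error 0.15, 95% interval -0.45 to 0.20, limma adjusted p = 0.993), the most negative of the 8, and -0.21 (standard error 0.12, limma adjusted p = 0.996) without ΔJ replicates 5 and 6. Leaving out ΔJ replicate 6 alone gave -0.25 (standard error 0.11, limma adjusted p = 0.914), and age as a covariate gave -0.05. Its negative direction was kept under every alternative run, with -0.05 in replicates 1 to 3 and -0.21 in replicates 4 to 6, but a difference of 0.89 log2 units would have been needed for a call.

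*Emx2* (chromosome 19, 59458690 to 59465357), the second homeodomain gene, had the widest ΔJ range. Its level was -0.35 in the lowest, 0.29 in the median and 0.72 in the highest ΔJ mouse, against 0.26, 0.29 and 0.45 in wild-type mice. The medians were equal to 2 decimals, and ΔJ replicates 4 and 5 lay below, and ΔJ replicate 6 above, all 6 wild-type mice. *Emx2* averaged 0.22 ± 0.35 in ΔJ mice and 0.31 ± 0.07 in wild-type mice (SD, n = 6 each). The log2 fold change was -0.10 (standard error 0.14, 95% interval -0.40 to 0.20, adjusted p = 0.993 from limma), 0.02 without ΔJ replicate 5, and -0.08 (standard error 0.07) without both mice.

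*Bcl11b* (chromosome 12, 107910403 to 108004145), the gene tied to receptor class, was the only one with a positive difference beyond 0.01. It had levels of 0.41, 0.46 and 0.63 in the lowest, median and highest ΔJ mouse, against 0.24, 0.41 and 0.51 in wild-type mice. A single ΔJ mouse, replicate 4, was above all wild-type mice, and 3 wild-type mice, replicates 1, 2 and 6, were below the ΔJ range. *Bcl11b* averaged 0.48 ± 0.08 in ΔJ mice and 0.41 ± 0.10 in wild-type mice (SD, n = 6 each). Its log2 fold change of 0.07 (standard error 0.06, 95% interval -0.06 to 0.21, adjusted p = 0.993 from limma) bounds the level in ΔJ mice between 0.96 and 1.16 times that of wild-type mice. It was 0.08 in replicates 1 to 3, 0.07 in replicates 4 to 6 and 0.09 without ΔJ replicates 5 and 6.

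**Figure D2:**
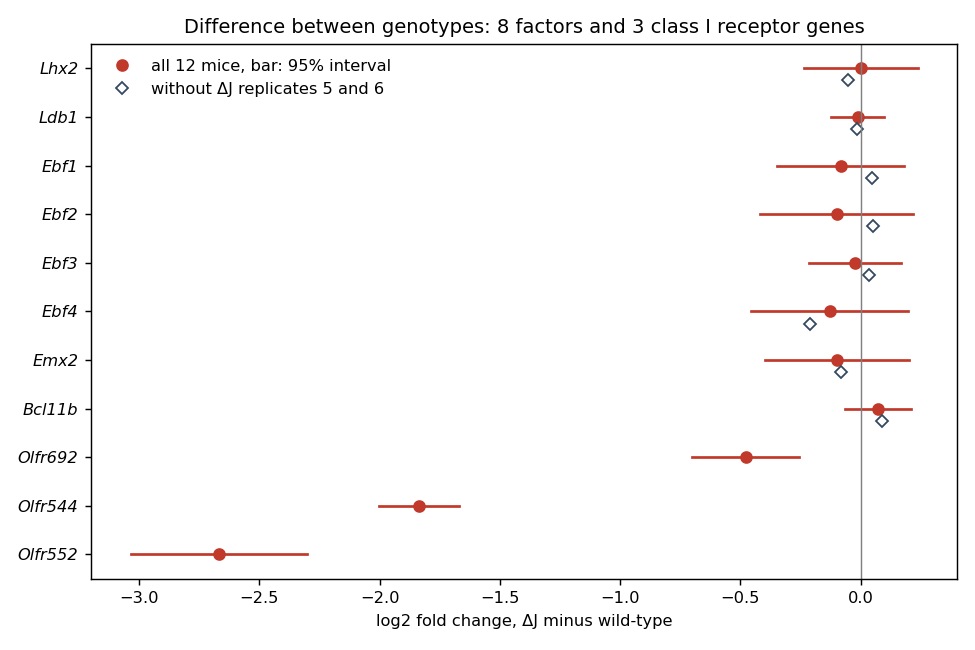
Log2 fold change (horizontal axis, ΔJ minus wild-type) of the 8 factors and of 3 class I OR genes. Red points and bars are the estimate and 95% interval over 12 mice, and open diamonds the factors without ΔJ replicates 5 and 6. All factor intervals span 0, while *Olfr552*, *Olfr544* and *Olfr692* lie at -2.67, -1.84 and -0.48.

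Receptor genes of the class I cluster were measured in the same mice for scale. On the log2 scale *Olfr552* fell by 2.67 (standard error 0.17, limma adjusted p = 6.67e-06) and *Olfr544* fell by 1.84 (standard error 0.08, limma adjusted p = 2.50e-07). *Olfr692*, at one end of the cluster, had -0.48 (standard error 0.10) and did not pass when adjusted over all probe sets (adjusted p = 0.242 from limma). In the fit over all mice, the 95% intervals of all 8 factors exclude a decrease as large as the median class I change of -0.51. For *Ebf4*, the least certain, the lower bound was -0.45. This does not hold in every alternative fit. In replicates 4 to 6 alone *Ebf4* had -0.21 (standard error 0.21) and *Emx2* had -0.21 (standard error 0.26). Errors of that size do not exclude such a decrease. In replicates 1 to 3 alone *Ebf4* had -0.05 (standard error 0.08) and *Emx2* had 0.01 (standard error 0.05).

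In ΔJ replicates 5 and 6 several of the factors lay far from the wild-type mice of replicates 4 to 6. Relative to the mean of these 3 wild-type mice, ΔJ replicate 5 was lower by 0.70 log2 units for *Emx2*, by 0.68 for *Ebf2*, by 0.62 for *Ebf1* and by 0.61 for *Ebf4*. *Ebf3* was at -0.39, *Lhx2* at -0.27, *Ldb1* at -0.11 and *Bcl11b* at 0.02 in that mouse. In ΔJ replicate 6 *Emx2* was higher by 0.37 and *Ebf4* by 0.27, with 0.17 for *Ebf3*, 0.13 for *Lhx2*, 0.08 for *Ebf2*, 0.07 for *Ldb1* and 0.05 for *Ebf1*. ΔJ replicate 4 had *Emx2* at -0.31, *Ebf4* at -0.29 and *Bcl11b* at 0.19. The 6 wild-type mice stayed between -0.14 and 0.12 of their own mean in all 8 genes. That mean includes the mouse itself, which narrows the wild-type range relative to that of the ΔJ mice. Thus 7 factors were below the wild-type mean in replicate 5 and 7 above it in replicate 6, *Bcl11b* being near the mean in both. In ΔJ replicate 4, too, 7 factors were below that mean, and 1, *Bcl11b*, was above it. Over all probe sets, replicate 6 was the lowest ΔJ mouse in 29.0% and the highest in 14.6%, and replicate 5 the lowest in 26.7% and the highest in 23.1%.

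**Figure D3:**
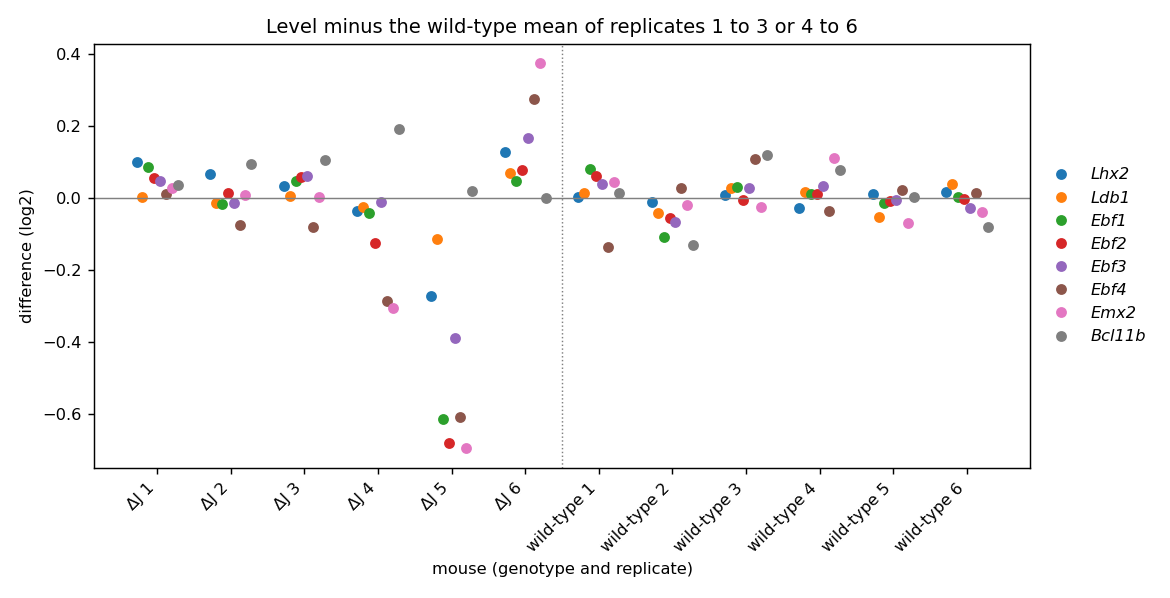
Level of each factor minus the mean of the 3 wild-type mice of the same replicates, 1 to 3 or 4 to 6 (vertical axis, log2), by mouse (horizontal axis), 1 colour per gene. ΔJ replicate 5 reaches -0.70 and ΔJ replicate 6 reaches 0.37. The wild-type mice, each part of its own reference mean, stay between -0.14 and 0.12.

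Several lists of cell type markers had their highest or lowest mean in ΔJ replicate 5 or 6. The mean level of 9 markers of mature OSNs, such as *Omp* and *Cnga2*, was 3.17 in ΔJ replicate 5 and 3.38 in ΔJ replicate 6, the lowest and the highest of the 12 mice, with 3.22 to 3.35 in wild-type mice. For 7 markers of immature OSNs the values were 0.61 and 0.84, again both ends of the 12 mice (wild-type 0.64 to 0.79). The mean of 6 mesenchymal markers was 2.94 in replicate 5, the highest of all mice, and 2.67 in replicate 6 (wild-type 2.57 to 2.77). ΔJ replicate 4, at 2.82, was also above the wild-type range. Sustentacular markers, 5 in all, had 2.58 in ΔJ replicate 5 and 2.81 in ΔJ replicate 6 (wild-type 2.55 to 2.83). That wild-type range pools 2.55 to 2.62 in replicates 1 to 3 and 2.81 to 2.83 in replicates 4 to 6. ΔJ replicate 5 was thus below every other mouse of replicates 4 to 6, ΔJ replicate 4 being at 2.78. Basal and progenitor markers were highest of all mice in replicate 5, at -0.65, with -0.73 in replicate 6. Wild-type mice had -0.86 to -0.82 in replicates 1 to 3 and -0.79 to -0.67 in replicates 4 to 6. The mean of this list includes a *Top2a* probe set below the background gauge of -3.72 (*Kdm5d* in females). It was at -4.45 ± 0.97 in ΔJ and -4.71 ± 0.47 in wild-type mice (SD, n = 6 each). Noise of that probe set therefore enters the order of the mice. T cell markers were lowest in ΔJ replicates 5 and 6, at -2.65 and -2.59. Wild-type mice had -2.24 to -2.11 in replicates 1 to 3 and -2.54 to -2.33 in replicates 4 to 6. B cell markers were within the wild-type range of -2.47 to -2.14, at -2.38 in both ΔJ replicates 5 and 6. Glial markers had -0.32 in replicate 5 and -0.11, the highest of all mice, in replicate 6 (wild-type -0.54 to -0.37). ΔJ replicate 4, at -0.30, was above that range too. The part of these cell types in the deviations of the factors was not tested.

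Across the 12 mice, after subtraction of the mean of the 3 mice of each genotype within each set, Pearson's r between 2 of the 7 genes other than *Bcl11b* was 0.75 to 0.99 in all 21 pairs, and *Bcl11b* had r of -0.14 to 0.28 with them. These values describe arrays that share ΔJ replicates 5 and 6. Without them ΔJ replicate 4 is alone in its set and carries no information, and over the other 9 mice r ran from -0.56 to 0.93 and was negative in 7 of the 21 pairs. *Ebf1*, *Ebf2* and *Ebf3* stayed close to each other in these 9 mice (r of 0.85 to 0.93 in 3 pairs), whereas *Ebf4* had r of -0.56 to -0.23 with them.

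The genes most like each factor over the 12 mice, by the same measure, mostly encode proteins of other families. For *Lhx2* they were *Frmd4b*, *Cbll1* and *Supt7l* (r of 0.99 or above), and 4.36% of all probe sets of a single gene had r above 0.9 with *Lhx2*. *Ldb1* was followed most closely by the OR genes *Olfr1351* (0.98) and *Olfr676* (0.97), and by *Vwa3b* (0.96). *Ebf1* resembled *Bmpr2*, a receptor of bone morphogenetic proteins, *Trp53bp2* and the synaptic vesicle gene *Syt1*, all at 0.99. *Ebf2* was most like the chromatin remodeler gene *Chd7*, *Phf8* and *Fmn2*, and *Ebf3* most like *Lrguk*, *Prrc2c* and *Sos1*, with r of 0.99 or above. *Capn15*, *Ttll6* and *Wasf1* were nearest to *Ebf4* (0.99), and *Asap1*, *Tctn1* and *Amer2* to *Emx2* (0.98). *Bcl11b* had fewer genes like it, with *Zfp518b*, the corepressor gene *Bcor* and *5530400C23Rik* at 0.95 and 0.133% of probe sets above 0.9. Without ΔJ replicates 5 and 6, over the same 9 mice, these 24 values were between 0.69 and 0.99. The 24 genes were picked by r over the 12 mice, which include these 9. Their high values in the 9 mice are thus partly fixed by that choice and are no separate test of the likeness. The likeness rests on the subtraction of set means, since the plain correlation over 12 mice was under 0.9 in 17 of the 24, with -0.16 for *Lhx2* and *Cbll1*, -0.26 for *Lhx2* and *Supt7l* and 0.03 for *Bcl11b* and *Zfp518b*.

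Between the sets of arrays, *Lhx2* and *Ebf4* were higher and *Ebf2* was lower in replicates 4 to 6 than in replicates 1 to 3. These 3 of 8 genes passed a limma adjusted p of 0.05 with genotype in the model, against 42.2% of all probe sets, so the share is near the background. By direction, 2 of 8 were higher, against 10.4% of all probe sets, and 1 of 8 was lower, against 31.8%. Only in *Ebf2* did the 2 sets of mice not overlap, against 23.3% of all probe sets. *Lhx2* had 3.26 ± 0.13 in replicates 4 to 6 and 2.96 ± 0.04 in replicates 1 to 3 (SD, n = 6 each), a log2 difference of 0.31 (standard error 0.06, adjusted p = 0.00247 from limma). Only 1 of the mice of replicates 4 to 6, at 3.02, lay within the range of replicates 1 to 3, 2.92 to 3.03. *Ebf2* had 2.89 ± 0.28 and 3.24 ± 0.05, a difference of -0.35 (standard error 0.11, adjusted p = 0.0248 from limma), with a highest value of 3.09 in replicates 4 to 6 and a lowest of 3.16 in replicates 1 to 3. *Ebf4* had 1.94 ± 0.31 and 1.61 ± 0.09, a difference of 0.33 (standard error 0.12, adjusted p = 0.0429 from limma). Without ΔJ replicates 5 and 6 the 3 differences were 0.34, -0.26 and 0.33, and all 3 passed (largest adjusted p 0.00394 from limma). The share of all probe sets that passed in that fit is not given here, so this count has no background beside it. The median over all probe sets was -0.10 with the 75th percentile subtracted and 0.05 for the values as deposited. In the deposited values 4 genes passed, against 41.2% of all probe sets, all of them higher in replicates 4 to 6: *Lhx2* (0.45), *Ebf4* (0.47), *Bcl11b* (0.20) and *Ldb1* (0.16), whereas *Ebf2* had -0.20 and did not pass. After quantile normalization *Lhx2* (0.24) and *Ebf2* (-0.41) passed, against 35.3% of all probe sets. With 1 mouse left out, *Lhx2* passed in all 12 fits, *Ebf2* missed the threshold without ΔJ replicate 1 or 3 (adjusted p = 0.0542 and 0.0535 from limma), and *Ebf4* passed only without ΔJ replicate 4 or 5. The share of all probe sets passing in these 12 fits is not given either. All 3 mice at P33 belong to replicates 4 to 6, and the part of age in these differences was not tested.

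**Figure D4:**
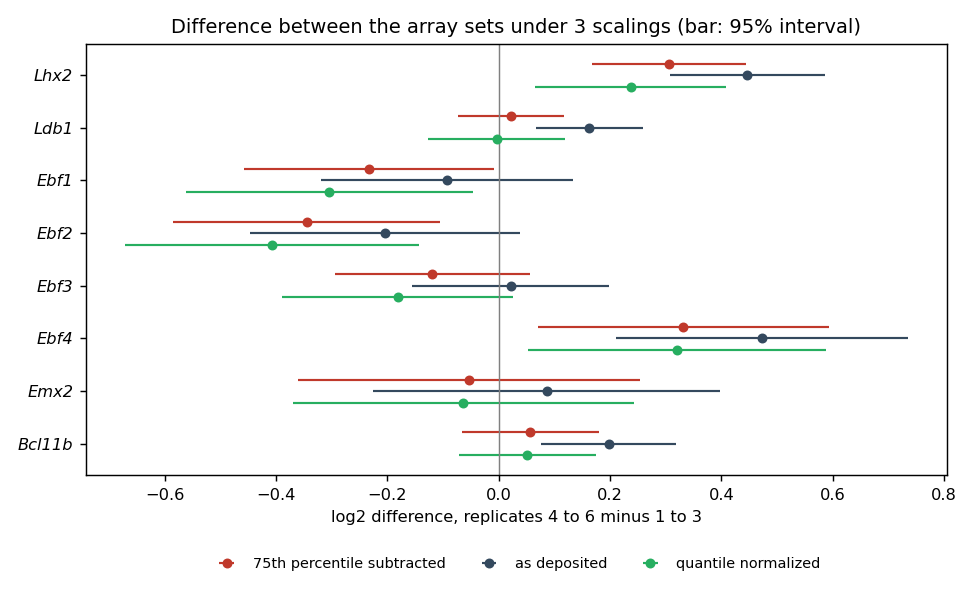
Log2 difference of each factor between replicates 4 to 6 and replicates 1 to 3 (horizontal axis) with 95% intervals, for values with the 75th percentile subtracted (red), as deposited (blue) and quantile normalized (green). *Lhx2* is above 0 under all 3 scalings at 0.24 to 0.45, and *Ebf2* is below 0 at -0.41 to -0.20.

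The difference between genotypes did not itself differ between the sets by a test of limma (0% of probe sets passed after adjustment, and 3.83% had an unadjusted p under 0.05). For the 8 factors this difference ran from -0.29 (*Ebf2*, standard error 0.21) to -0.01 (*Bcl11b*, standard error 0.12). Males and females did not differ in any factor beyond the test, against 0.0141% of all probe sets called and 4.65% with an unadjusted p under 0.05. The largest log2 difference, male minus female, was 0.21 for *Emx2* (standard error 0.14, adjusted p = 0.896 from limma), with means of 0.37 ± 0.19 in 5 males and 0.19 ± 0.27 in 7 females (SD). It was 0.02 without ΔJ replicate 5, a female, and ΔJ replicate 6, a male. The genotype effect on *Emx2* was 0.52 log2 units higher in males than in females (95% interval 0.0006 to 1.04, unadjusted p = 0.0498), which did not pass the adjusted test of limma, where 0% of probe sets passed and 3.40% had an unadjusted p under 0.05. Without the same 2 mice it was 0.21 (95% interval -0.13 to 0.55).

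Other genes of the same families and complexes did not pass the test either. In 6 lists of 55 genes, 50 were measured by 53 probe sets, of which 0 were called by limma and 1 had an unadjusted p under 0.05. Their median log2 fold change was -0.03, equal to that of all probe sets to 2 decimals, with a range of -0.20 to 0.18. Among 10 measured LIM homeodomain genes, the smallest p belonged to *Lhx6* (-0.09) and *Lhx1* (-0.15). Of 9 partners of Ldb1, *Ldb2*, its paralog, had -0.07 and the LIM-only gene *Lmo4* 0.10. Of 11 other homeobox genes of the epithelium, *Six4* had -0.08 and *Pax6*, a gene of placode and basal cells, had -0.08. The Ebf partners *Zfp423* and *Zfp521* had -0.09 and -0.05, and *Bcl11a*, the paralog of *Bcl11b*, had -0.03. Of 13 other transcription factors of the OSN lineage, *Sox11*, a gene of immature neurons, had 0.15 (standard error 0.06, unadjusted p = 0.0366, adjusted p = 0.993 from limma) and *Nfib* had 0.18 on one probe set and -0.07 on the other. Among 4 genes with O/E sites in their promoters, which Ebf proteins bind in rodents, *Gnal*, the olfactory G protein, had -0.15 and the channel gene *Cnga2* had 0.06.

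Markers of the cell types that the tissue holds or that also express a factor did not differ beyond the test. Of 9 markers of mature OSNs, 7 of immature OSNs and 7 probe sets of basal cells and progenitors, 0 were called by limma. *Gap43* (0.18), *Stmn4* (0.15), *Trp63* (-0.20) and *Top2a* (0.08) had the smallest p of the last 2 lists. The other *Top2a* probe set, below the background gauge, had 0.26 (standard error 0.39). *Cyp1a2* and *Ermn* of the sustentacular list had -0.07 and -0.02. B cells express *Ebf1*, and 5 of 6 B cell markers were measured, with a mean level between -2.45 and -2.32 in ΔJ mice, against -2.47 to -2.14 in wild-type mice. *Cd79b* had -0.16 (unadjusted p = 0.0303, adjusted p = 0.993 from limma) and *Pax5* -0.10. T cells express *Bcl11b*, and 5 of 6 T cell markers had a mean level between -2.65 and -2.20 in ΔJ mice, against -2.54 to -2.11 in wild-type mice, with -0.13 for *Cd3e* and -0.09 for *Cd8a*. *Ms4a1* of the B cell list averaged -3.74 in ΔJ mice and -3.67 in wild-type mice, close to *Kdm5d* in females (-4.23 to -3.05). *Cd3d* (-3.13 in ΔJ mice, -3.17 in wild-type mice), *Cd3g* (-3.22 in ΔJ mice, -3.14 in wild-type mice) and *Cd79a* in ΔJ mice (-3.08) also lay in that background range. Mesenchymal *Lum* and *Col3a1* had 0.15 and 0.09, and glial *Frzb* and *S100b* 0.21 and 0.10. How much of the signal of a factor came from each cell type was not tested.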

How the data were processed

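Total RNA of the MOE of 6 ΔJ and 6 wild-type mice was hybridized, 1 mouse to an array. For every mouse the authors deposited a log2 signal of each of the 35556 probe sets. Affymetrix Expression Console is named in the processing notes of the submitters. Its version and the way probes were combined are not given in the sources used. The methods of the paper name a 75th percentile shift in GeneSpring as a later step, and the percentiles of the deposited columns still differ between arrays.

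Genotype, sex, age and replicate number came from the labels. The 75th percentile of each array was subtracted, and lmFit and eBayes of limma 3.58.1 (R 4.3.3) were run on all probe sets, with only genotype in the model. P-values were adjusted by Benjamini-Hochberg over all 35556 probe sets, and a call is an adjusted p under 0.05. Of the probe sets, 21789 had 1 gene symbol, 1621 several and 12146 none, and the genes were named from the platform annotation. Class I genes are protein coding OR genes between *Olfr543* and *Olfr692* in the RefSeq table of GRCm38.p6. The 8 genes, the gene lists and the tests were chosen with earlier results of these data known. The text names the 8 factors, *Olfr544*, *Olfr552* and *Olfr692*, the 2 genes of each list with the smallest p and the 3 genes most like each factor. *Bcl11a*, *Omp*, *Ms4a1*, *Cd3d*, *Cd3g*, *Cd79a* and the Y-linked genes are named outside this rule, after their values were seen. Samples of 1 genotype are separate mice, and their number limits the precision.

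Whether replicate numbers pair the mice was checked. Deviations from the genotype means correlated at 0.185 to 0.441 between same-numbered ΔJ and wild-type mice, above 0.1 in all 6 pairs, so a fit with the number as a block was run. The labels do not say what the numbers share. The steps were tested on simulated data with known changes.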

Additional observations from a re-analysis of the deposited data

Results flagged for a closer look

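A sample far from the others of its genotype was found in 5 of the 16 combinations of a factor and a genotype, by the gap to its nearest neighbour relative to the range of 6 mice (Dixon's test). Chance flags about 1 in 20 such groups, and the 8 genes share their mice, so these groups are not independent. *Ebf1* was at 2.63 in ΔJ replicate 5, with the next mouse at 3.20, and *Ebf3* was at 2.49 in the same mouse, with the next at 2.87. *Ebf4* was at 2.32 in ΔJ replicate 6, with the next at 1.76. The 6 mice of a group pool both sets of arrays, and *Ebf4* was higher in replicates 4 to 6. Relative to the wild-type mean of replicates 4 to 6, *Ebf4* was at 0.27 in ΔJ replicate 6 and at -0.61 in ΔJ replicate 5, which was not flagged. *Bcl11b* was at 0.63 in ΔJ replicate 4, with the next at 0.48. In wild-type mice, *Emx2* was at 0.45 in replicate 4, with the next at 0.33. None of the marker lists had such a mouse in either genotype.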

How the results depend on the processing

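None of the 8 factors and none of the other family and complex genes was called under any of the 25 alternatives, which changed the scaling, the filter on dim probe sets, the model, the variance estimate and the mice. The smallest unadjusted p of a factor in any of them was 0.0504, without ΔJ replicate 6. The replicate block left the median log2 fold change of the factors at -0.05, called 0 factors, 0 of the other family and complex genes and 40 class I genes, and 51 probe sets in all, against 48 without it. Class I genes called were 12 in replicates 1 to 3, 15 in replicates 4 to 6 and 24 in P30 mice only, which hold fewer mice, and 27 to 36 with 1 mouse left out, against 40 in all mice. With the mice unchanged they were 58 with the array set as a block, 45 with sex and 37 with age as a covariate, and 42 or 43 under the other scalings. The number of factors differing between the sets of arrays was 1 to 4 with 1 mouse left out, against 3, and the share of all probe sets in these fits is not given. That number was 1 (*Lhx2*) without ΔJ replicate 1 or 3, where the adjusted p of *Ebf2* was 0.0542 and 0.0535 and that of *Ebf4* 0.0554 and 0.07 from limma. *Ebf4* also missed the threshold without ΔJ replicate 2 or 6 or any 1 of the wild-type mice (largest adjusted p 0.089 from limma), and *Ebf1* passed without ΔJ replicate 5 (adjusted p = 0.0389).

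The sign of the log2 fold change turned in 40 of 925 values of single genes, and none of the turned values was called or lay beyond 0.08 on either side of 0. *Lhx2* turned to -0.0045 with quantile normalization, -0.061 in replicates 4 to 6, -0.0046 with sex as a covariate and -0.052 without ΔJ replicates 5 and 6. With the median shift, *Ldb1* became 0.029, *Ebf3* 0.019 and *Ermn* 0.018. In replicates 1 to 3 alone, *Ebf1* had 0.039, *Ebf2* 0.043, *Ebf3* 0.031, *Emx2* 0.012, *Ldb2* 0.014, *Pax6* 0.00024, *Gnal* 0.014, *Gap43* -0.0071, *Cyp1a2* 0.071, *Ermn* 0.027, *Col3a1* -0.051, *Frzb* -0.033 and *S100b* -0.055. Without ΔJ replicates 5 and 6, *Ebf1* had 0.047, *Ebf2* 0.051, *Ebf3* 0.037, *Zfp521* 0.0051, *Cd3e* 0.040 and *Col3a1* -0.051. *Ermn* had 0.0011 in P30 mice, and *Cd8a* had 0.0060 in replicates 4 to 6. With 1 mouse left out the range was -0.059 to 0.043 for *Lhx2*, -0.033 to 0.0040 for *Ldb1*, -0.13 to 0.036 for *Ebf1*, -0.15 to 0.036 for *Ebf2*, -0.055 to 0.056 for *Ebf3*, -0.20 to 0.015 for *Emx2*, -0.077 to 0.0045 for *Zfp521* and -0.030 to 0.17 for *Col3a1*. Fits with 1 mouse left out hold unequal sets of arrays in the 2 genotypes and no term for the set. *Lhx2*, which differed between the sets, had -0.034, -0.037 and -0.033 without wild-type replicate 1, 2 or 3. It had 0.034, 0.042 and 0.043 without wild-type replicate 4, 5 or 6. The cause of these turns was not tested.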
